A study of Mus musculus with 6 samples.

Results

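The genes described here are 35 listed cell cycle genes, taken by symbol from the count files of immortalized bone marrow-derived macrophages (BMMs) and compared between *Aif1*-/- and WT cells. They are 35 of the 47729 genes in the files, and all 35 were among the 17406 genes with enough counts to be tested. By the phase in which their products act, 16 were taken as S phase genes (6 for entry into S phase and licensing of origins, 10 for the replication fork and nucleotide supply), 14 as genes of G2 and mitosis, and 5 as G1 cyclins and kinases. *Ccna2* acts in both S phase and G2 and was counted with the mitotic genes. RNA-seq was performed on 6 libraries, 3 of *Aif1*-/- and 3 of WT BMMs. All came from C57BL/6J male mice of 8 weeks of age. The *Aif1*-/- mice carry a germline inactivation of *Aif1*, which encodes a calcium-binding, actin-bundling protein of myeloid cells. Marrow monocytes of both genotypes were grown into macrophages and then made into lasting lines with the large T antigen of SV40. Both were kept in 10% FBS with 120 ng/ml CSF-1, the growth factor on which macrophages depend, and used at passages 3 to 5. The study describes the animals of a genotype as biologically independent. Whether each library is a separately immortalized line is not stated in the sources used here, so p-values reflect only how much these libraries varied.

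Cells enter S phase when D cyclins with Cdk4 or Cdk6, then E cyclins with Cdk2, phosphorylate the pocket proteins of the retinoblastoma family and free E2F transcription factors. E2F then raises the genes of origin licensing and of the replication fork. Later, the MuvB complex, together with B-Myb and FoxM1, binds the CHR element of promoters, often with CCAAT boxes nearby, and drives the genes of G2 and mitosis. SV40 large T antigen binds both the pocket proteins and p53, so immortalized BMMs divide under an altered form of this control in both genotypes.

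These promoter elements are shown first because the S phase and mitotic genes differ in them. Promoter windows of 300 bases, 250 before and 50 after the gene start, were taken from RefSeq on GRCm38.p6 and were found for 29 of the 35 genes, with 31 windows in all. Both strands were searched. The E2F letters were TTCCCGC, or with other bases in the middle TTGGCGC, or in a further form TTGCCGC, or as the last of the set TTCGCGC. The CHR letters were TTTGAA, or in the less common form TTCGAA, and the CCAAT box was searched by its own name. E2F letters on opposite strands can overlap, and each is then counted. CHR letters were in 2 of 15 windows of S phase genes (13.3%) and in 10 of 12 windows of mitotic genes (83.3%), against 19.2% of all 32851 windows. E2F letters were in 10 of 15 S phase windows (66.7%) and in 3 of 12 mitotic windows (25.0%), against 9.57% of all windows. CCAAT was in 10 of 15 S phase windows and in 12 of 12 mitotic windows, against 37.4% of all windows. CHR and CCAAT letters occurred together in 13.3% of the S phase, 83.3% of the mitotic and 7.53% of all windows. The 4 windows of G1 genes held neither E2F nor CHR letters. A match describes the letters only and says nothing of binding in these cells.

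**Figure D1:**
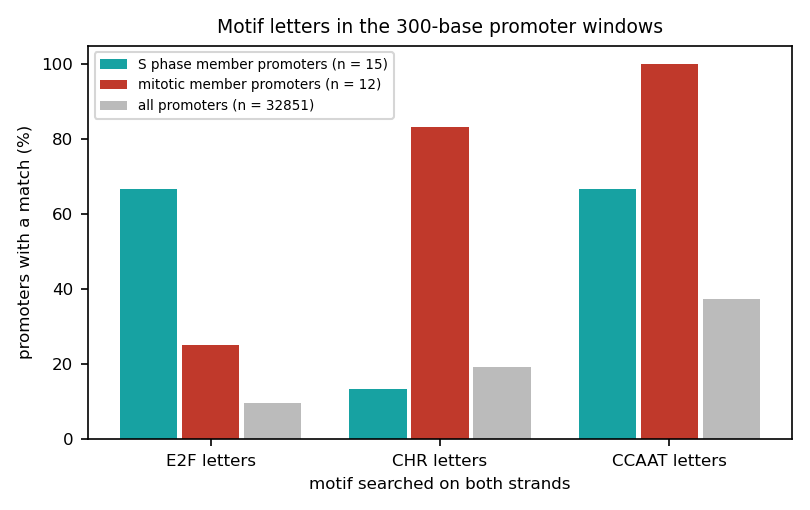
Share of 300-base promoter windows (y axis, %) that hold E2F, CHR or CCAAT letters on either strand (x axis), for windows of S phase genes (n = 15), of mitotic genes (n = 12) and for all windows (n = 32851). CHR letters are in 13.3% of the S phase and 83.3% of the mitotic windows, and E2F letters in 66.7% of the S phase and 25.0% of the mitotic windows.

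Windows of 4 mitotic and 2 S phase genes are printed 5′ to 3′, with the searched letters in capitals. Those of the mitotic genes *Cenpf* (chr1:189688037-189688336, minus strand), *Bub1b* (chr2:118597961-118598260, plus strand) and *Ccnb2* (chr9:70421505-70421804, minus strand) are shown because these genes were higher in *Aif1*-/- cells. *Cdk1* (chr10:69352863-69353162, minus strand) is shown as a mitotic gene with CHR, CCAAT and E2F letters together. *Mcm6* (chr1:128359656-128359955, minus strand) and *Mcm5* (chr8:75109259-75109558, plus strand) are shown as S phase genes with several E2F matches and no CHR letters.
*Cenpf*: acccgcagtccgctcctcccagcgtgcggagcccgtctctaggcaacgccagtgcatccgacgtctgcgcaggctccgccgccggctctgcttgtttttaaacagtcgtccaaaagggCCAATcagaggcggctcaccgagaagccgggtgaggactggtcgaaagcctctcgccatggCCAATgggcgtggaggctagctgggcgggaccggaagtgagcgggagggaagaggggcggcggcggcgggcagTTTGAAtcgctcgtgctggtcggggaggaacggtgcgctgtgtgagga
*Bub1b*: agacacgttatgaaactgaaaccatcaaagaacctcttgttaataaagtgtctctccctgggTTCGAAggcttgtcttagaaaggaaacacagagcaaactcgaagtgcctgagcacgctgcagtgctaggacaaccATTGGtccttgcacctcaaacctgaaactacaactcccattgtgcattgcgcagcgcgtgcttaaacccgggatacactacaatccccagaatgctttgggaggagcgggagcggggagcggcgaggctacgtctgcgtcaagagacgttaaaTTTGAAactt
*Ccnb2*: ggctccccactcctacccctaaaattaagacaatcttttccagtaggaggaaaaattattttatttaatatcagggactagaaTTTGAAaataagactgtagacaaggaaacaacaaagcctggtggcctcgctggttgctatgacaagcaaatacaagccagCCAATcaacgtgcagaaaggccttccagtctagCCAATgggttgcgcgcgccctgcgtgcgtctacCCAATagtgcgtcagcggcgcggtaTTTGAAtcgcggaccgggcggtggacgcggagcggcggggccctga
*Cdk1*: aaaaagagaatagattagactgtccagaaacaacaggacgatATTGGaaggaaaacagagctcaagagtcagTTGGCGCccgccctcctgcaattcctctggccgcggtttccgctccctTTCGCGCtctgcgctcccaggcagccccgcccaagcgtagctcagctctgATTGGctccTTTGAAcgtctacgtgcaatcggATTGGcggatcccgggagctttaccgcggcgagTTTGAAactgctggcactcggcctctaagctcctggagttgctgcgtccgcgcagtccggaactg
*Mcm6*: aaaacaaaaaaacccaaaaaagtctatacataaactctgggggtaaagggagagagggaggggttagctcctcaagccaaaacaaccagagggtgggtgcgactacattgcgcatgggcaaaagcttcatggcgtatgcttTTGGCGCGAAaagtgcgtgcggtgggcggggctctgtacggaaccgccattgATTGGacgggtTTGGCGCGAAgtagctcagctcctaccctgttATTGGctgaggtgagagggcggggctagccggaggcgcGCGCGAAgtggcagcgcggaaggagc
*Mcm5*: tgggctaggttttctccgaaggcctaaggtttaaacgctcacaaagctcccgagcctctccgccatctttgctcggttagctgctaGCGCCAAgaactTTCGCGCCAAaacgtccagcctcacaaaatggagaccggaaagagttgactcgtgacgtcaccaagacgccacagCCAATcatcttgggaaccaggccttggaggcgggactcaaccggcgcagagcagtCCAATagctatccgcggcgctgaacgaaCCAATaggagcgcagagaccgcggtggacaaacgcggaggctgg
In *Cenpf* the TTTGAA lies at bases 3 to 8 after the gene start, and in *Ccnb2* the nearer of its CHR matches lies at bases 5 to 10.

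Gene totals were 17707986 to 29314253 counts per library, of which the 35 genes held 0.729% to 0.825%. *Aif1* checked the labels, with normalized read counts of 3.53, 5.33 and 1.32 in *Aif1*-/- libraries, against 221, 133 and 202 in WT libraries. Macrophage identity was checked with 12 markers, whose summed level was 135678 to 137605 in *Aif1*-/- and 91215 to 111616 in WT libraries. Of the 12, 8 were higher (66.7%, against 8.04% of all genes tested), 1 was lower (8.33%, against 10.5%) and none was at 0. Their log2 fold changes ran from -0.40 to 4.93, so the sum hides large differences in single markers. Markers of granulocytes, fibroblasts, T and B cells, and erythroid cells and progenitors were too low to be tested. The summed level of 7 megakaryocyte and platelet markers, most of it *Pf4*, was 2040 to 2147 in *Aif1*-/- and 972 to 1090 in WT libraries. Log2 fold changes of the 5 tested among these 7 ran from -0.49 to 4.41. The part of these marker differences in the results was not tested. Reads outside genes were 33.6% to 35.7% of counted reads in *Aif1*-/- libraries and 32.4%, 40.4% and 25.5% in WT replicates 1, 2 and 3, so WT replicates 2 and 3 lay at opposite ends. Pairs of *Aif1*-/- libraries differed by 2.52 to 3.54 times the sampling noise (chi-square per degree of freedom), so no library was a copy of another. Among WT libraries the value was 11.4 for replicates 1 and 2, 28.6 for 1 and 3 and 49.8 for 2 and 3. WT replicate 3 thus lay farthest from the other WT libraries. Calls and class medians are given with and without WT replicate 3, and also without WT replicate 2.

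The first question was how many of the listed genes differed between the genotypes. In *Aif1*-/- cells 5 of the 35 were higher (*Cenpf*, *Bub1b*, *Ccna2*, *Ccnb2* and *Ccnd1*) and 2 were lower (*E2f1* and *Cdk6*), by edgeR's quasi-likelihood test with Benjamini-Hochberg adjusted p under 0.05 over all genes tested. The share called, 7 of 35, lies near the 18.6% called among all genes, of which 8.04% were higher and 10.5% lower. The changes were small. The largest of the 35 was 0.43 on the log2 scale, and 2299 of the 3231 called genes (71.2%) changed by at least that much. The median size of the log2 fold change was 0.15 over the 35 genes and 0.20 over all genes tested. By class, 1 of 16 S phase genes was lower (6.25%) and 0 higher, 4 of 14 mitotic genes were higher (28.6%) and 0 lower, and of 5 G1 genes 1 was higher and 1 lower. In bulk RNA, fewer or more cycling cells and less or more RNA per cell cannot be told apart.

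**Figure D2:**
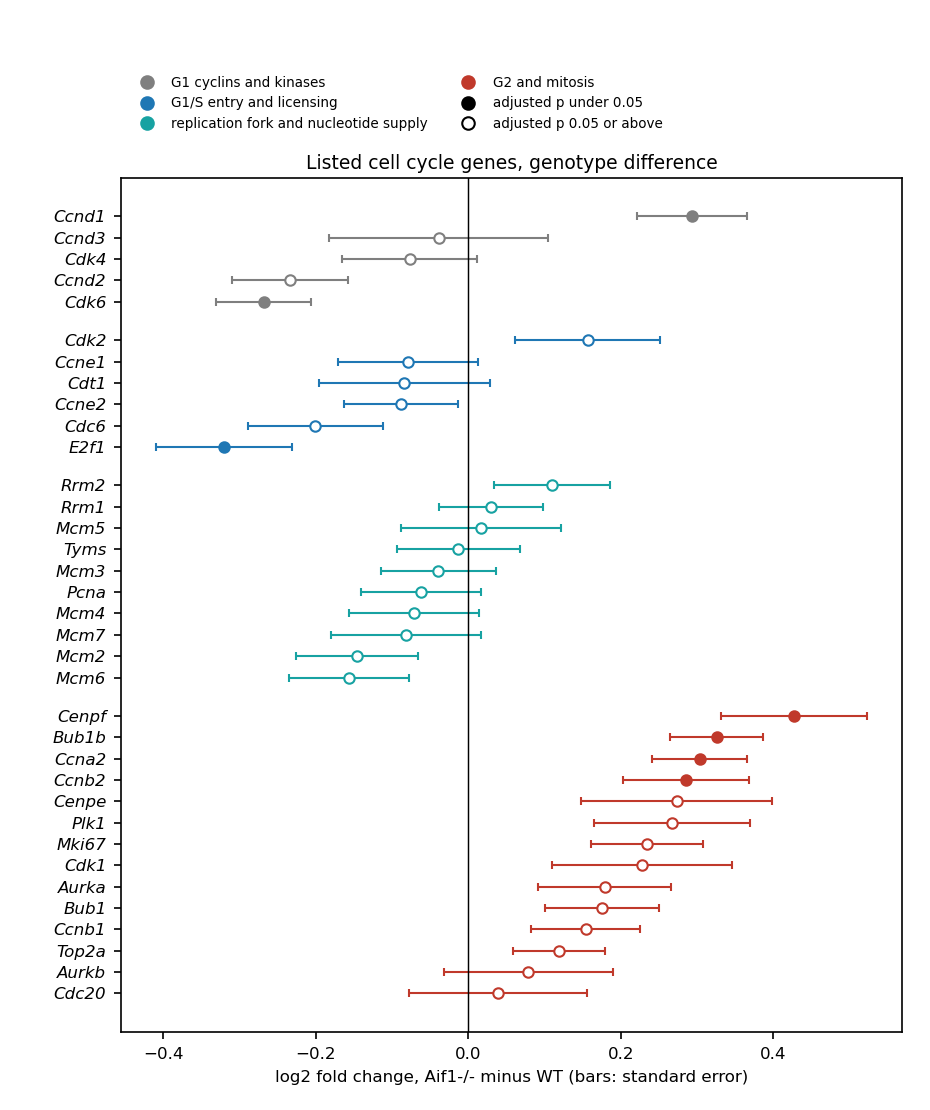
Log2 fold change, *Aif1*-/- minus WT (x axis), of each of the 35 genes (y axis), with bars for the standard error and filled points for an adjusted p under 0.05 (n = 3 libraries per genotype). All 14 mitotic genes lie right of 0, from 0.04 for *Cdc20* to 0.43 for *Cenpf*, while 12 of the 16 S phase genes lie left of 0.

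Of the 14 mitotic genes 4 rose, and the other 10 did not pass the test. *Cenpf*, a large kinetochore and nuclear matrix protein made in G2, had normalized counts of 6602, 6434 and 6406 in *Aif1*-/- libraries, against 5024, 5366 and 4071 in WT libraries. The genotypes did not overlap, and WT replicate 3 was the lowest library. The log2 fold change was 0.43 ± 0.10 (SE, n = 3 each, adjusted p = 0.010). *Bub1b* encodes BubR1, a kinase-like protein of the spindle checkpoint that restrains the anaphase-promoting complex. It had 3407, 3336 and 3344 in *Aif1*-/- libraries, against 2620, 2738 and 2691 in WT libraries. Here the WT libraries were close together and all 3 lay far below the *Aif1*-/- libraries (0.33 ± 0.06, adjusted p = 0.0037). *Ccna2*, cyclin A2, the partner of Cdk2 in S phase and of Cdk1 in G2, had 4696, 4964 and 4889 in *Aif1*-/- libraries, against 3974, 3782 and 4032 in WT libraries. The genotypes again did not overlap (0.30 ± 0.06, adjusted p = 0.0065). *Bub1b* and *Cenpf* passed the test in 15 of 15 alternatives, and *Ccna2* in 14 of 15, the exception being the fit without *Aif1*-/- replicate 2 (adjusted p = 0.056).

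The B cyclins, which bind Cdk1 to drive entry into mitosis, were both above WT in every *Aif1*-/- library. *Ccnb2* had 2469, 2456 and 2387 normalized counts in *Aif1*-/- libraries, against 1876, 1873 and 2249 in WT libraries, a log2 fold change of 0.29 ± 0.08 (adjusted p = 0.038). WT replicate 3 lay nearest to the *Aif1*-/- libraries. *Ccnb1* had 1470, 1464 and 1498 in *Aif1*-/- libraries, against 1403, 1248 and 1333 in WT libraries, and did not pass the test (0.15 ± 0.07, adjusted p = 0.18). Its near-identical copy *Ccnb1-ps* held 37.2% as many reads, so reads of either may be placed at the other, and the value of *Ccnb1* is uncertain to that extent. Reads at *Ccnb2-ps* were 0.114% of those at *Ccnb2*.

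Of the other mitotic genes, 4 are given in full although they fall outside the rule for named genes and were chosen after their values were seen. *Mki67*, which coats mitotic chromosomes and marks cycling cells, had the highest level of the 35 per length of exon, at 218 RPKM in *Aif1*-/- and 185 RPKM in WT cells (reads per kilobase of exon, scaled to library size). Its normalized counts were 51786, 51153 and 51728 in *Aif1*-/- libraries, against 44836, 46925 and 39712 in WT libraries, so the genotypes did not overlap, but the test just missed the threshold (0.23 ± 0.07, adjusted p = 0.053). *Cenpe*, the kinetochore motor, had 6666, 6675 and 6739 in *Aif1*-/- libraries, against 5825, 6491 and 4298 in WT libraries (0.27 ± 0.13, adjusted p = 0.18). WT replicate 3 was its lowest library, and the fold change was 0.13 without that library, still with no call, and 0.41 with a call without WT replicate 2 (adjusted p = 0.023). *Cdk1*, the kinase of mitotic entry, went the other way in WT replicate 3. It had 2868, 2777 and 2778 in *Aif1*-/- libraries, against 2288, 1996 and 2908 in WT libraries. The genotypes thus overlapped through WT replicate 3 alone (0.23 ± 0.12, adjusted p = 0.24). Without that library the fold change of *Cdk1* was 0.40, and without WT replicate 2 it was 0.12. *Plk1*, a kinase of centrosome maturation and mitotic exit, had 1577, 1647 and 1608 in *Aif1*-/- libraries, against 1229, 1209 and 1576 in WT libraries (0.27 ± 0.10, adjusted p = 0.11). For *Plk1* WT replicate 3 lay just below the lowest *Aif1*-/- library, and without it the fold change was 0.41. The remaining 5, all without a call, had positive fold changes: 0.18 for *Bub1* and for the spindle pole kinase *Aurka*, 0.12 for the topoisomerase *Top2a*, 0.08 for *Aurkb* of the chromosomal passenger complex and 0.04 for *Cdc20*, the activator of the anaphase-promoting complex. The positive sign of all 14 mitotic genes did not hold in every subset. Without WT replicate 1, 13 were positive, and without WT replicate 2, 12 were, with *Cdc20* negative in both and *Aurkb* in the latter.

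In all, every *Aif1*-/- library lay above every WT library for 10 of the 14 mitotic genes (71.4%), where 16.5% of all genes tested did so. The exceptions were *Cdk1*, *Aurka*, *Aurkb* and *Cdc20*, and for *Cdk1*, *Aurkb* and *Cdc20* WT replicate 3 was the highest of the 6 libraries. Without WT replicate 3, *Mki67*, *Cdk1*, *Aurka*, *Aurkb*, *Plk1* and *Cdc20* also passed the test. Of the 14 mitotic genes 10 were then higher and 0 lower, where 27.6% of all genes passed in either direction.

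**Figure D3:**
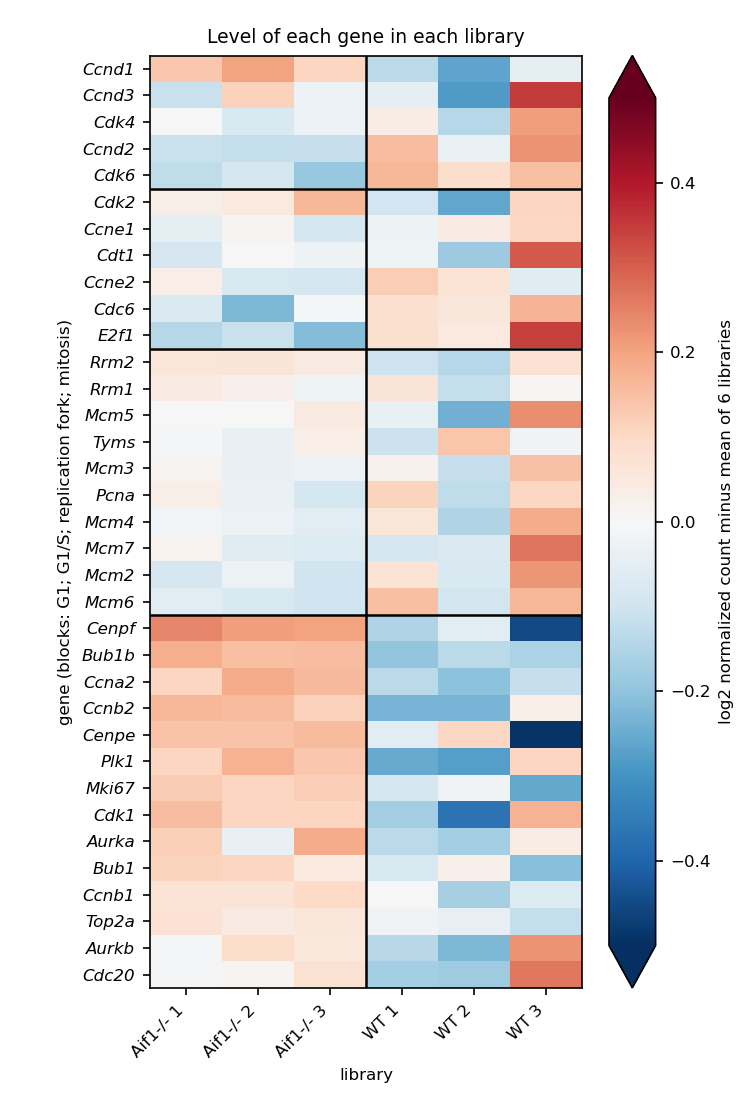
Level of each gene (y axis, in blocks of G1, G1/S, replication fork and mitotic genes) in each of the 3 *Aif1*-/- and 3 WT libraries (x axis), as log2 normalized count minus the mean of the 6 libraries. For most genes the *Aif1*-/- libraries resemble one another more than the WT libraries do, with exceptions such as *Aurka* and *Cdc6*. WT replicate 3 is low for *Cenpf* (4071) and *Cenpe* (4298) and high for *E2f1* (2043) and *Ccnd3* (1185).

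Of the 6 genes of S phase entry and licensing, 1 was lower and 0 were higher. *E2f1*, the activating E2F factor that is itself an E2F target, had 1458, 1493 and 1385 normalized counts in *Aif1*-/- libraries, against 1702, 1668 and 2043 in WT libraries. All *Aif1*-/- libraries were below all WT libraries, with WT replicate 3 the highest (-0.32 ± 0.09, adjusted p = 0.030). Without WT replicate 3 the fold change was -0.22 and the call stayed. *Cdc6*, which loads the Mcm helicase at origins, was also below WT in every *Aif1*-/- library without passing the test (-0.20 ± 0.09, adjusted p = 0.16). Thus 2 of 16 S phase genes (12.5%) lay below WT without overlap, where 19.1% of all genes tested did so. The E cyclins, the partners of Cdk2 at the start of S phase, overlapped between genotypes. *Ccne1* had 480.5, 500.8 and 466 in *Aif1*-/- libraries, against 487, 509.9 and 532 in WT libraries (-0.08 ± 0.09, adjusted p = 0.65). *Ccne2* had 1675, 1549 and 1547 in *Aif1*-/- libraries, against 1787, 1718 and 1571 in WT libraries (-0.09 ± 0.07, adjusted p = 0.51). *Cdt1*, the second licensing factor, had a fold change of -0.08 and *Cdk2* of 0.16, both without a call.

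The replication fork showed no call in 10 genes. The helicase subunits *Mcm2* to *Mcm7*, which form the ring that unwinds DNA, gave the fullest view. *Mcm2* had 4867, 5056 and 4823 in *Aif1*-/- libraries, against 5405, 4897 and 6015 in WT libraries (-0.15 ± 0.08, adjusted p = 0.28). *Mcm6* had 9587, 9440 and 9264 in *Aif1*-/- libraries, against 11035, 9331 and 11166 in WT libraries (-0.16 ± 0.08, adjusted p = 0.23). In both, WT replicate 2 lay within the range of the *Aif1*-/- libraries and WT replicates 1 and 3 lay above it. *Mcm3* had 4918, 4753 and 4772 in *Aif1*-/- libraries, against 4942, 4501 and 5399 in WT libraries. *Mcm4* had 3990, 3947 and 3887 in *Aif1*-/- libraries, against 4204, 3637 and 4587 in WT libraries. In these, as in *Mcm5* and *Mcm7*, WT replicate 3 was the highest library and the fold changes were close to 0, at -0.04 and -0.07. *Mcm5* had 5355, 5329 and 5509 in *Aif1*-/- libraries, against 5199, 4527 and 6278 in WT libraries (0.02 ± 0.10). *Mcm7* had 1970, 1869 and 1859 in *Aif1*-/- libraries, against 1837, 1850 and 2344 in WT libraries (-0.08 ± 0.10). The 6 subunits, which act in equal numbers in the ring, thus spanned -0.16 to 0.02, and none passed the test.

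Fold changes of the other fork genes were -0.06 for *Pcna*, the sliding clamp, 0.03 and 0.11 for *Rrm1* and *Rrm2*, the subunits of ribonucleotide reductase, and -0.01 for *Tyms*, thymidylate synthase. None passed the test (adjusted p = 0.40 to 0.94). The approximate 95% intervals of the 10 fork genes ran from -0.31 at the lowest (*Mcm6*) to 0.26 at the highest (*Rrm2*). These intervals used a normal quantile and were somewhat narrow for so few libraries. That of *Mcm6* ended at -0.003, although its unadjusted p was 0.074 by the quasi-likelihood test. The median log2 fold change of the mitotic genes, 0.23, lay inside the interval of *Rrm2* and just above that of *Mcm5*, which ended at 0.22. Which intervals hold it thus depends on the approximation. *Pcna-ps2*, a near-identical copy, held 122.8% as many reads as *Pcna* itself and was also without a call (-0.03, adjusted p = 0.87), and reads could have been placed at either.

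The G1 genes moved in both directions. *Ccnd1*, cyclin D1, the most abundant of the D cyclins here and a growth factor-induced partner of Cdk4 and Cdk6, had 10740, 11239 and 10519 normalized counts in *Aif1*-/- libraries, against 8893, 8144 and 9480 in WT libraries. It was above WT in every *Aif1*-/- library (0.29 ± 0.07, adjusted p = 0.017). *Ccnd2* lay on the other side, with 4413, 4394 and 4402 in *Aif1*-/- libraries, against 5311, 4655 and 5570 in WT libraries, and missed the threshold (-0.23 ± 0.08, adjusted p = 0.059). *Ccnd3* had 862, 1007 and 912 in *Aif1*-/- libraries, against 903, 765 and 1185 in WT libraries, with WT replicates 2 and 3 as the lowest and highest of the 6 (-0.04 ± 0.14, adjusted p = 0.90). Reads at *Ccnd3-ps* were 12.8% of those at *Ccnd3*, and reads of either may be placed at the other. *Cdk6*, the kinase partner of the D cyclins, had 7381, 7594 and 7081 in *Aif1*-/- libraries, against 9039, 8564 and 8961 in WT libraries. It was below WT without overlap (-0.27 ± 0.06, adjusted p = 0.012), while its relative *Cdk4* overlapped (-0.08 ± 0.09, adjusted p = 0.64). Per length of exon, *Ccnd1* stood at 97.9 RPKM in *Aif1*-/- and 79.9 RPKM in WT cells, and *Ccnd2* at 19.9 RPKM in *Aif1*-/- and 23.4 RPKM in WT cells.

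To set S phase against mitosis within each library, mean log2 CPM was taken over the genes of each class. S phase genes averaged 6.78, 6.76 and 6.76 in *Aif1*-/- libraries, against 6.82, 6.72 and 6.95 in WT libraries. Mitotic genes averaged 7.31, 7.30 and 7.31 in *Aif1*-/- libraries, against 7.06, 7.06 and 7.12 in WT libraries. The *Aif1*-/- values of the S phase mean thus fell inside the WT range, whereas the mitotic mean separated the genotypes. The S phase mean minus the mitotic mean was -0.53, -0.54 and -0.55 in *Aif1*-/- libraries, against -0.25, -0.33 and -0.17 in WT libraries, a difference of -0.29 between the genotype means. The spread of this contrast was ± 0.01 in *Aif1*-/- and ± 0.08 in WT libraries (SD, n = 3 each). By fitted log2 fold changes the median was -0.08 over S phase genes and 0.23 over mitotic genes, against -0.004 over all genes tested, and the class medians differed by -0.31. Without WT replicate 3 the median was -0.003 over S phase genes and 0.24 over mitotic genes, and their difference was -0.25. The S phase median was thus near 0 without WT replicate 3, and the mitotic median was as large. Without WT replicate 2 the median was -0.12 over S phase genes and 0.22 over mitotic genes, and their difference was -0.34.

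**Figure D4:**
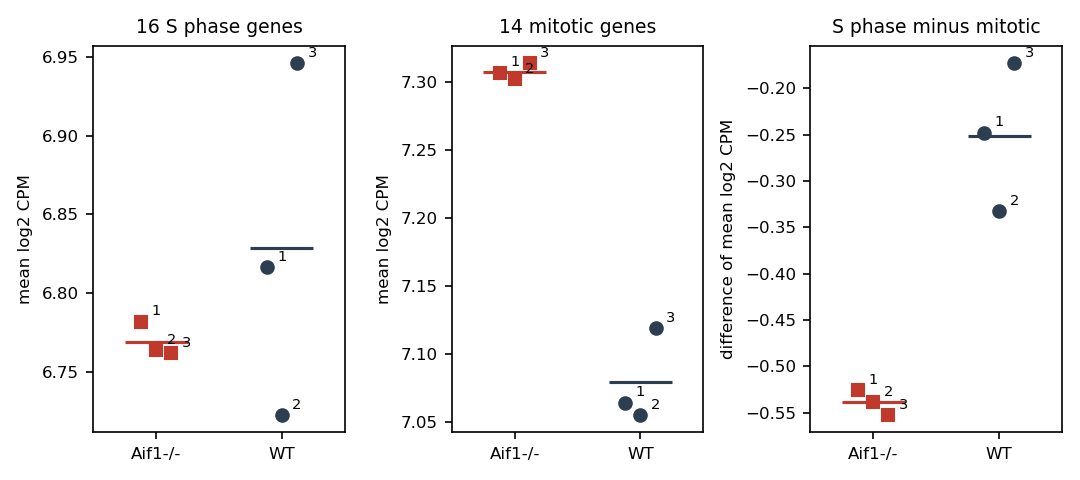
Mean log2 CPM over the 16 S phase genes (left) and the 14 mitotic genes (middle), and their difference (right), in each library, with replicate numbers beside the points and lines at the genotype means. The *Aif1*-/- libraries lie between 6.76 and 6.78 for S phase genes, inside the WT range of 6.72 to 6.95, but between 7.30 and 7.31 for mitotic genes, above all WT libraries. The y axes do not start at 0.

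WT replicate 3 differed from the other WT libraries in a way that followed gene composition. Its log2 CPM minus the mean of WT replicates 1 and 2 was positive for 14 of 16 S phase genes and for 9 of 14 mitotic genes, and ran from -0.52 for *Cenpe* to 0.51 for *Ccnd3*. Across the 35 genes this deviation had a Spearman correlation of 0.78 with the GC content of the longest transcript and of -0.43 with exon length. Across all genes with these values the correlations were 0.45 and -0.05. Genes are not independent replicates, and the correlations describe a single library. With the trends on GC content and exon length removed from each library, an alternative chosen after seeing the data, 9 of the 35 genes were higher and 3 lower, and the 7 genes called before were among them. Calls over all genes rose as well, from 18.6% to 22.3% of genes tested.

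**Figure D5:**
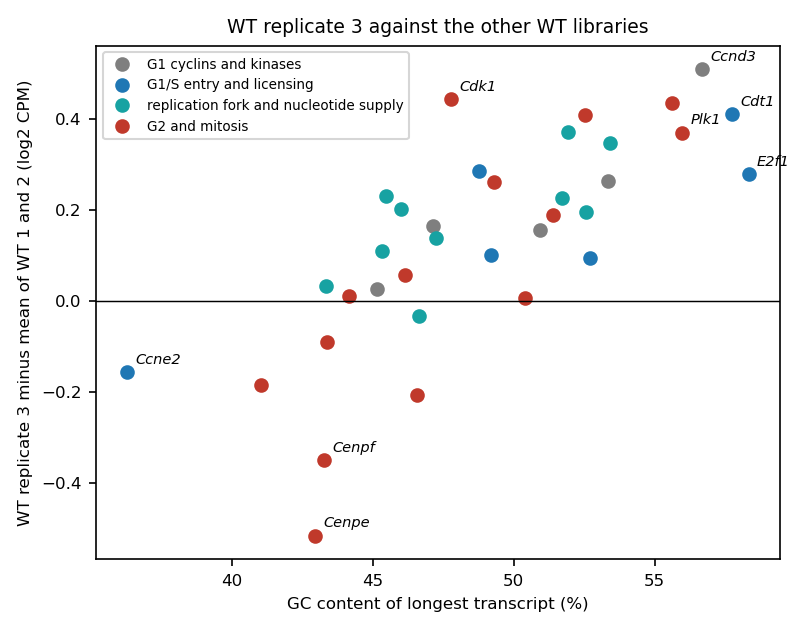
Log2 CPM of WT replicate 3 minus the mean of WT replicates 1 and 2 (y axis) against GC content of the longest transcript (x axis, %) for the 35 genes, coloured by class. AT-rich genes such as *Cenpe* (-0.52) and *Cenpf* (-0.35) lie below 0 and GC-rich genes such as *Ccnd3* (0.51) and *Cdt1* (0.41) above it.

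Of the 7 calls, 4 were lost when any *Aif1*-/- library or WT replicate 1 was left out. These were *Ccnd1*, *Ccnb2*, *Cdk6* and *E2f1*, and without *Aif1*-/- replicate 2 *Ccna2* was lost as well. Calls over all genes also fell in these fits, from 18.6% to between 11.5% and 11.9% without an *Aif1*-/- library and to 14.5% without WT replicate 1. Without WT replicate 2, *Ccnb2* was lost, while *Mki67*, *Bub1* and *Cenpe* were also called higher and *Ccnd2*, *Mcm2* and *Mcm6* lower. Calls over all genes rose in that fit too, to 22.5%. Without WT replicate 3 all 7 calls stayed, and *Cdk2* and *Rrm2* were called higher beside the 6 mitotic genes. There, calls over all genes rose to 27.6%. Fold changes of *Ccnd1*, *Ccnb2*, *Cdk6* and *E2f1* kept their direction, for example 0.24 to 0.35 for *Ccnd1* and -0.37 to -0.22 for *E2f1*. Exons of 3 of the 7 genes (*Ccnd1*, *Cdk6* and *Ccna2*) overlap an exon on the opposite strand, whose genes each held far fewer reads, such as *Exosc9* with 565 normalized counts in *Aif1*-/- and 586 in WT cells beside *Ccna2*.

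Further lists showed how far the pattern extended among cell cycle genes. Of 57 other mitotic genes, 6 were higher (10.5%) and 0 lower, with a median log2 fold change of 0.05. Fold changes were positive for 36 of them and negative for 21. *Ube2c*, the ubiquitin-conjugating enzyme of the anaphase-promoting complex, had 1911, 1927 and 1925 normalized counts in *Aif1*-/- libraries, against 1283, 1276 and 1391 in WT libraries (0.54 ± 0.07, adjusted p = 2.5e-04). Its 3 *Aif1*-/- libraries were nearly equal and far above WT. *Cdca2*, which recruits a phosphatase to chromosomes at mitotic exit, rose by 0.42, *Lmnb1*, lamin B1, by 0.32, and *Bub3*, the checkpoint partner of BubR1, by 0.29 on the log2 scale. Every *Aif1*-/- library lay above every WT library for 18 of the 57 (31.6%), where 16.5% of all genes did so, and below for 2 (3.51%), against 19.1% of all genes. The share called higher, 10.5%, lay near the 8.04% of all genes.

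Of 46 other genes of the replication machinery, 2 were higher (4.35%, against 8.04% of all genes) and 4 lower (8.70%, against 10.5%), with a median log2 fold change of -0.08. The *Aif1*-/- libraries were all below the WT libraries for 14 of the 46 (30.4%), where 19.1% of all genes did so, and above for 3. *Lig1*, the ligase that joins Okazaki fragments, had 6406, 5998 and 6672 in *Aif1*-/- libraries, against 3784, 3720 and 4013 in WT libraries (0.73 ± 0.07, adjusted p = 3.4e-05). *Dna2*, a nuclease of Okazaki fragment processing, had 1478, 1345 and 1452 in *Aif1*-/- libraries, against 763, 1090 and 814 in WT libraries (0.68 ± 0.12, adjusted p = 0.0032). Both lay far outside the range of the listed S phase genes. In the other direction, *Pola2*, a subunit of the polymerase that primes synthesis, fell by 0.48 and *Chaf1b*, a subunit of the histone chaperone CAF-1, fell by 0.40 on the log2 scale. Replication histone genes gave a further readout of S phase, since ribosomal RNA depletion keeps their mRNAs, which lack a poly(A) tail. Of 61 tested, 1 was higher (*Hist1h1b*, 0.41 ± 0.12, adjusted p = 0.045) and 0 lower, against 8.04% and 10.5% of all genes. Fold changes were positive for 46 and negative for 15, with a median of 0.17. The median thus had the opposite sign to that of the 16 listed S phase genes, -0.08. Histone genes held 0.830%, 0.820% and 0.833% of counts in *Aif1*-/- libraries, against 0.654%, 0.591% and 0.999% in WT libraries, so WT replicate 3 was the highest library and the genotypes overlapped through it alone. Near-identical histone copies can share reads.

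The lists of regulators were short, and their counts stand beside 8.04% of all genes tested called higher and 10.5% called lower. Among the regulators, the E2F family of 9 genes had 1 higher, the activator *E2f3* (0.44 ± 0.08, adjusted p = 0.0023). In this family 2 were lower, the repressors *E2f6* (-0.27 ± 0.08, adjusted p = 0.034) and *E2f7* (-0.21 ± 0.06, adjusted p = 0.047). With DESeq2 neither repressor passed. Of 8 genes of MuvB, B-Myb and FoxM1, 0 were higher and 2 lower, *Mybl1*, a relative of B-Myb, and the MuvB subunit *Lin52*, at -0.39 and -0.37, and with DESeq2 1 was lower. *Cdkn1a*, the p53-induced inhibitor of cyclin-dependent kinases, was the single call among 9 pocket proteins and inhibitors (-0.35 ± 0.10, adjusted p = 0.035), where DESeq2 called 3 lower. Of 18 genes of p53 and its targets, 2 were higher and 4 lower. *Plk2*, a stress-induced polo-like kinase, had 711, 708 and 761 normalized counts in *Aif1*-/- libraries, against 1399, 1487 and 1355 in WT libraries (-0.96 ± 0.08, adjusted p = 1.0e-05). *Gadd45a*, a stress response gene, fell by 0.93 and *Bbc3*, which encodes the apoptosis factor PUMA, fell by 0.62, whereas the antiproliferative *Btg2* rose by 0.96 on the log2 scale. Members of this list thus moved in both directions. Of 17 genes of CDK activation and checkpoints, *Ccnh*, a subunit of the CDK-activating kinase, and *Ccnf* rose by 0.33 and 0.26, while *Pkmyt1*, an inhibitory kinase of Cdk1, and *Fbxw7*, which targets cyclin E for degradation, fell by 0.38 and 0.29.

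Of 8 tested genes of the CSF-1 receptor and growth control, 4 were higher and 3 lower, against 18.6% of all genes called in either direction. *Myc*, a growth-promoting transcription factor, had 1739, 1858 and 1849 normalized counts in *Aif1*-/- libraries, against 871, 956 and 1049 in WT libraries (0.92 ± 0.08, adjusted p = 2.7e-05). The genotypes were far apart, and the difference exceeded that of each of the 35 listed genes. *Csf1r*, the receptor of the CSF-1 supplied in the medium, rose by 0.48 and *Maf*, a transcription factor that restrains macrophage self-renewal, by 0.50, whereas *Csf1* fell by 0.66 on the log2 scale.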

How the data were processed

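Total RNA from 3 *Aif1*-/- and 3 WT BMM libraries was depleted of ribosomal RNA with a stranded kit and sequenced as single-end reads. The authors trimmed the reads (Trim Galore 0.5), aligned them to GRCm38 (TopHat2 2.0.13, reads kept at no more than 1 location) and deposited raw counts per Ensembl gene (HTSeq 0.6.1p1), with no normalization. Rows that name no gene (25.5% to 40.4% of counted reads outside genes, 4.55% to 7.15% ambiguous) were left out of library sizes. Symbols came from GENCODE M21, which matched 47310 of 47729 genes. edgeR 4.0.16 (R 4.3.3) was run with TMM, its default filter and the quasi-likelihood test on genotype, with Benjamini-Hochberg adjusted p under 0.05 over 17406 genes. The SE of a fold change was its size over the root of the F value. Normalized counts were divided by TMM library size and scaled to the average library. Log2 CPM had a prior count of 2. Alternatives were DESeq2 1.42.0, limma-voom (limma 3.58.1), other size factors and filters, reads outside genes as a covariate, a replicate block and each library left out.

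The 35 genes and all lists were chosen with earlier results of these data known. Values in every library were given for genes past the threshold, the 3 highest and 3 lowest fold changes, and the Mcm, D, E and B cyclin families, and other lists named at most 4 genes of smallest adjusted p. At these depths the spread between libraries of a genotype exceeded counting error.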

Additional observations from a re-analysis of the deposited data

How the results depend on the processing

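Across 15 alternatives, 449 fold changes of the 35 genes kept their direction and side of the threshold, 38 gained and 20 lost the call, and 18 changed sign, none of them past the threshold. The 3231 genes called (18.6% of those tested) became 5517 (31.7%) with reads outside genes as a covariate. The genes higher and lower among the 35 became 14 and 4. No filter gave 8 higher beside 3540 calls in all. As 26934 genes were then tested, the share called over all genes fell to 13.1%. Removal of GC and exon length trends, chosen after seeing the data, gave 9 higher beside 3887 calls in all (22.3%). Leaving out each library in turn gave 2040 to 4889 calls in all (11.5% to 27.6% of genes tested). Among the 35, 2 to 13 genes were then higher and 0 to 5 lower. The mitotic median was 0.20 to 0.25 and the difference of class medians -0.34 to -0.25.

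Same-numbered libraries deviated together with correlations of 0.060, -0.075 and -0.086, so the numbers do not pair them. With a replicate block, 2872 genes passed (16.5%), and 4 of the 35 were higher and 1 lower. *Ccnd3* changed sign with the covariate (0.044), and with GC and length trends removed both *Ccnd3* (0.022) and *Tyms* (0.0048) did. Signs also changed when single libraries were left out, with ranges of -0.17 to 0.16 for *Ccnd3*, -0.068 to 0.062 for *Tyms*, -0.085 to 0.16 for *Mcm5*, -0.034 to 0.21 for *Cdc20*, -0.016 to 0.070 for *Rrm1*, -0.0059 to 0.23 for *Aurkb*, -0.16 to 0.022 for *Cdk4*, -0.18 to 0.071 for *Cdt1*, -0.099 to 0.034 for *Mcm3*, -0.15 to 0.014 for *Mcm4* and -0.14 to 0.050 for *Mcm7*. With DESeq2, genes lower numbered 0 in the E2F family, 1 in MuvB, B-Myb and FoxM1 and 3 among pocket proteins and inhibitors, and 2 histone genes were higher. With 3 libraries per genotype, a missed threshold does not show equal levels. The cause of these shifts was not tested.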
